A study of Mus musculus with 9 samples.

Results

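The 10 genes described here encode proteins of the neuronal membrane, the neurite and the growth cone: Ptprz1, Gpm6a, Gpm6b, Gap43, Ly6h, Basp1, Stmn2, Dcx, Ncam1 and L1cam. They are 10 of the 55536 genes in the deposited tables, listed by name and matched by symbol to the mouse annotation of GRCm38. Ptprz1, Gpm6a, Gap43 and Ly6h were picked because they were high in delta-enriched cells, so their delta levels are given as a description without a test. The other 6 were not picked by level, though they and the gene lists below were chosen with earlier results of these data known. The study sorted islet cells of C57B/L6 mice aged 12 weeks by FACS and sequenced total RNA, with 3 libraries in each of 3 subsets. The alpha-enriched subset was low for CD24 and negative for CD71, the beta-enriched subset was low for CD24 and positive for CD71, and the delta-enriched subset was high for CD24. CD24 is a small surface glycoprotein (gene Cd24a) and CD71 is the transferrin receptor (gene Tfrc). No mutation or treatment is stated for any mouse, and every islet preparation was picked by hand and kept in culture overnight before dispersion. The labels do not say whether the replicates of a subset came from separate mice or sorts, or whether mice were pooled, so p-values measure only the spread between these libraries, which may be technical.

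The libraries held 5663141 to 9529920 expected counts. Levels are given as scaled CPM, library-scaled counts after TMM normalisation, which compare 1 gene across libraries, and as TPM, which is per length and compares genes with each other. Summed markers of alpha cells ran from 79318 to 97901 CPM in the alpha libraries and from 2472 to 6585 in the delta libraries. Summed markers of beta cells reached 31770 to 43203 CPM in the beta libraries and 2834 to 4097 in the alpha libraries, and those of delta cells 15391 to 21754 in the delta libraries against 116 to 159 in alpha and 3.26 to 4.62 in beta. The sort marker Cd24a averaged 868 CPM in delta and less than 10 in each library of the other subsets. Tfrc, the other sort marker, was less apart, at means of 334 CPM in beta, 209 in alpha and 169 in delta. Its level in beta was 1.60-fold that in alpha (edgeR adjusted p = 0.000196). A ribosomal RNA locus took 34.4% of the counts of beta replicate 2, against 3.15% to 5.37% elsewhere, and acinar transcripts reached 2069 CPM in delta replicate 3. Each subset is an enriched fraction measured in bulk: fewer cells of a type and less RNA per cell cannot be told apart in any level below.

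Growth cones are the motile tips of growing axons and dendrites, where membrane proteins read adhesive and soluble cues and pass them to actin and microtubules beneath. Ptprz1 is a receptor-type tyrosine phosphatase with a chondroitin sulfate form, which binds the growth factor pleiotrophin and the neural adhesion molecule contactin. The M6 proteins (Gpm6a and Gpm6b) are tetraspan membrane proteins of the proteolipid family, and Gap43 and Basp1 are palmitoylated or myristoylated proteins of the inner membrane that bind calmodulin and phosphoinositides. Ly6h is a GPI-anchored protein of the Ly6 family that modulates nicotinic acetylcholine receptors. Stmn2 and Dcx act on microtubules, and Ncam1 and L1cam are adhesion molecules of the immunoglobulin superfamily. Endocrine cells of the islet share many such genes with neurons, and delta cells, which release somatostatin, carry neurite-like processes along which they reach other islet cells.

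Start-site sequences are shown for 3 genes with different patterns over the subsets: Ptprz1 and Gpm6a, which were high in delta, and Basp1, which was present in alpha and delta and nearly missing in beta. Each is the 250 bases before a gene start from RefSeq on GRCm38.p6, printed 5′ to 3′ on the gene's strand. Capitals mark GGGCGG (the GC box) and TATAAA (the TATA box), searched on both strands, and TAATTA, a homeodomain core that reads alike on both strands. The windows are chr6:22875252-22875501 on the plus strand for Ptprz1, chr8:54954478-54954727 on the plus strand for the second of 2 listed Gpm6a starts, and chr15:25413765-25414014 on the minus strand for Basp1.
Ptprz1: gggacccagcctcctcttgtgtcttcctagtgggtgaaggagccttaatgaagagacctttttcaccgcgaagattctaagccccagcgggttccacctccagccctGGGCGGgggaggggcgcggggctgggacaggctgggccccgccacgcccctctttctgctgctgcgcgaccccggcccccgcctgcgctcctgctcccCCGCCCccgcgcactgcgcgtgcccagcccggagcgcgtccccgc
Gpm6a: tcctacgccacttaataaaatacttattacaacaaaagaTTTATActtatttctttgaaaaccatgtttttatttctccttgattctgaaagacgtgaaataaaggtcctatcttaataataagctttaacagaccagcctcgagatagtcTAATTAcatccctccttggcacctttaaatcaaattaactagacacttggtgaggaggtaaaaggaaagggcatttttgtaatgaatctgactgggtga
Basp1: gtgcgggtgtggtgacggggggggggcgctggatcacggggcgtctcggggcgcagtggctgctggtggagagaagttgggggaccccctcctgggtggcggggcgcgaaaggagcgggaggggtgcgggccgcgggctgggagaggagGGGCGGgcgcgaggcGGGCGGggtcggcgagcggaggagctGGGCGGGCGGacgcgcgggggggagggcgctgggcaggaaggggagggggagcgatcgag

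The 3 windows differed in base composition. The Ptprz1 window was 71.6% G or C, above 92.7% of the 32851 start-site windows in the table, and held GGGCGG at 2 places, beginning 143 and 45 bases before the start. The Basp1 window was 78.8% G or C, above 98.3% of windows, with 4 matches of GGGCGG of which the last 2 overlap. The window shown for Gpm6a was only 33.6% G or C, above 3.52% of windows, and held 1 TATAAA on the opposite strand and 1 TAATTA, 211 and 99 bases before the start. The window of the first listed Gpm6a start, not shown, was 44.4% G or C, above 22.1% of windows, and held none of these motifs. GGGCGG was present in 32.7% of all windows, TATAAA in 12.4% and TAATTA in 4.84%, against a median of 52.4% G or C. Of the 10 genes, 6 had an entry in the table. A match is a description of letters only, and the libraries do not measure binding or which start was used.

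Ptprz1 stood highest of the 10 genes in delta by TPM. The gene lies at chr6:22875502-23052916 on the plus strand. It was measured at 343, 358 and 364 CPM in delta replicates 1 to 3, at 0.570, 0.126 and 1.98 CPM in the alpha replicates, and at 0 in all 3 beta libraries. The delta libraries were close together, with a mean of 355 ± 10.8 CPM (SD, n = 3), and no library of another subset came near them. The 3 alpha libraries held 20 counts in total against 7714 in delta, a ratio of mean levels of 399. Against beta, delta was at least 2330-fold higher, taking 3 counts over the beta subset as the floor, and bounds of this kind cover counting error only. Alpha was at least 5.51-fold higher than beta on the same floor. No test of that difference is given, since the gene passed the filter on low counts through delta alone.

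Gpm6a followed the same order of subsets. At chr8:54954843-55060871 on the plus strand, it was measured at 123, 119 and 121 CPM in the delta replicates and at 3.76, 4.41 and 6.77 CPM in the alpha replicates. It was at 0 in each beta library. Every alpha library held reads of the gene (116 counts in total), so the 3 subsets did not overlap. The mean in delta, 121 ± 1.95 CPM (SD, n = 3), was 24.3 times that in alpha and at least 795-fold above beta. Beta fell below alpha: alpha was at least 32.0-fold higher (edgeR, adjusted p = 1.75e-07), and this call was kept in every alternative run. Inside the gene lie 5 short transcripts of the same strand that are annotated only provisionally (biotype TEC), with means of 1.45 to 20.3 CPM in delta, and reads from them and from Gpm6a cannot be told apart with certainty.

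Gpm6b, the close relative of Gpm6a at chrX:166238911-166388988 on the plus strand, gave another picture. It was measured at 4.10, 3.65 and 7.20 CPM in alpha, at 4.11, 5.48 and 6.44 CPM in beta, and at 6.28, 5.75 and 10.7 CPM in delta. The subsets overlapped, with replicate 3 the highest library in each subset. No difference passed the test: delta against beta was 0.51 on the log2 scale (95% interval -0.28 to 1.30, edgeR adjusted p = 0.337), delta against alpha 0.61 (-0.17 to 1.40, adjusted p = 0.266) and beta against alpha 0.10 (-0.70 to 0.90, adjusted p = 0.891). Differences of up to 1.40 on the log2 scale therefore lie inside the intervals for delta.

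**Figure D1:**
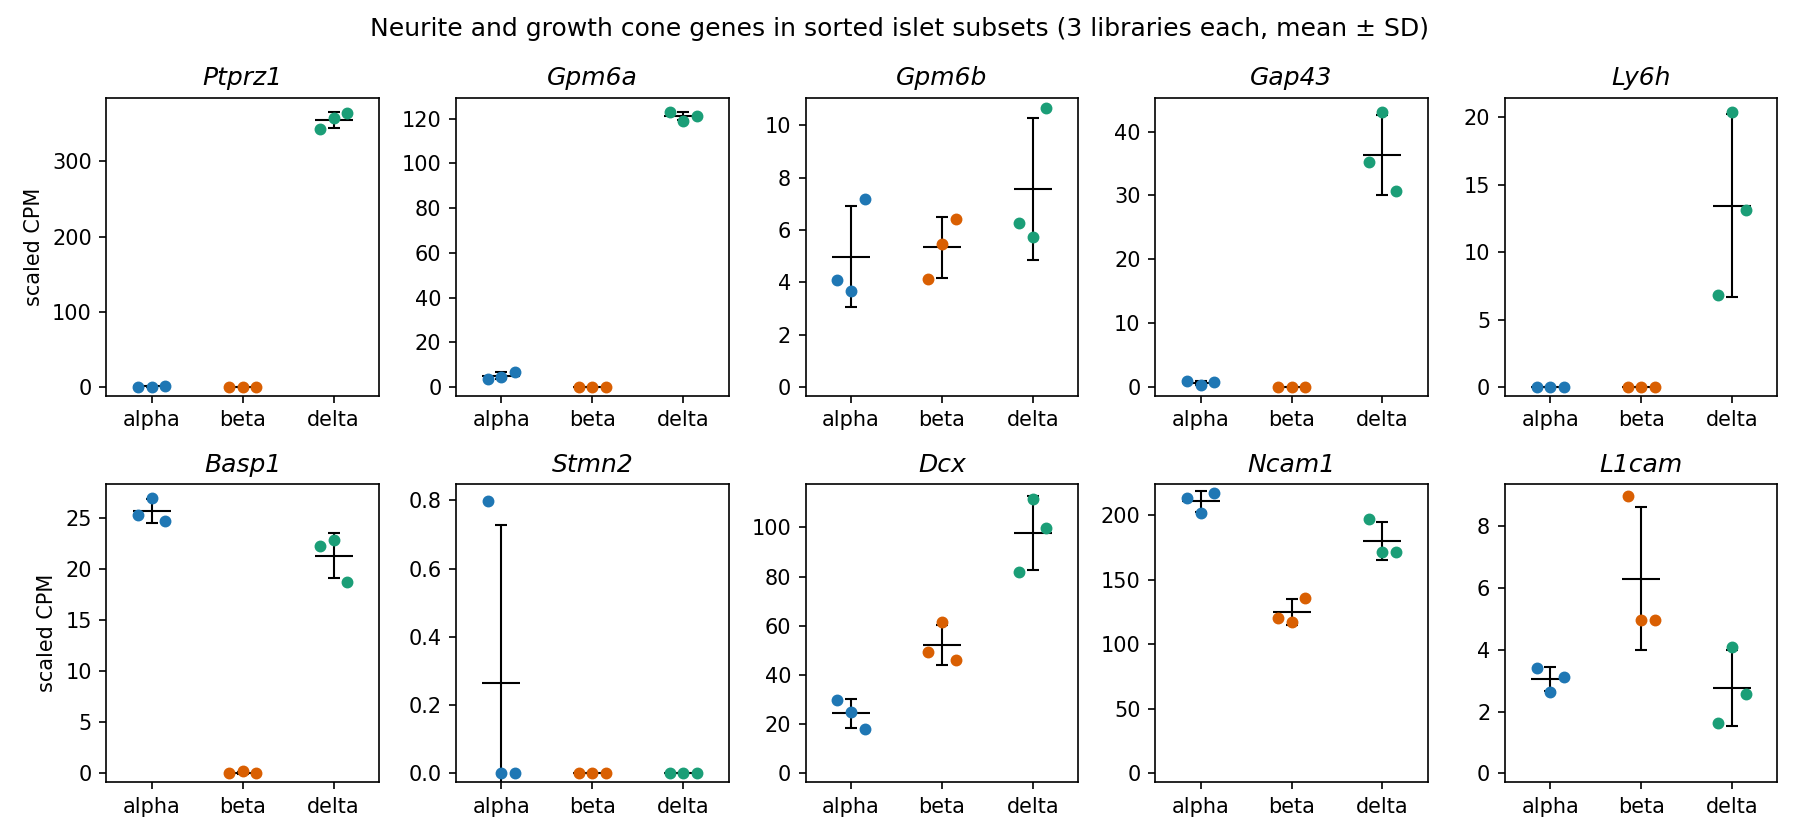
Scaled CPM (y axis, from 0) of the 10 genes in each library of the alpha-, beta- and delta-enriched subsets, with the mean and SD of 3 libraries as bars. Ptprz1, Gpm6a, Gap43 and Ly6h, picked for this, are near 0 outside delta; Basp1 is near 0 in beta alone; Stmn2 has counts in 1 alpha library, and its lower error bar is not drawn below the axis.

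Gap43 and Basp1, the best known pair of growth cone membrane proteins with like biochemistry, differed in where they were found. Gap43, at chr16:42248442-42340651 on the minus strand, was measured at 35.2, 43.1 and 30.7 CPM in delta and at 0.911, 0.252 and 0.705 CPM in alpha. No beta library held a count. Delta, at a mean of 36.3 ± 6.27 CPM (SD, n = 3), was 58.3 times alpha, which rests on 15 alpha counts, and at least 236-fold above beta. Alpha was at least 4.13-fold above beta, and as Gap43 also passed the filter on low counts through delta alone, no test of that difference is given.

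Basp1, at chr15:25363277-25413764 on the minus strand, was a gene of alpha and delta alike. Its level was 25.3, 26.9 and 24.7 CPM in the alpha replicates and 22.3, 22.8 and 18.8 CPM in the delta replicates. Among the beta libraries only replicate 2 held a count, a single one, at 0.171 CPM. Delta exceeded beta by a ratio of 417 (95% exact counting interval 74.4 to 16501, edgeR adjusted p = 2.44e-10) and alpha exceeded beta by 505 (90.3 to 19985, adjusted p = 1.70e-10). Both calls were kept in all 19 alternatives. Between delta and alpha the difference was -0.27 on the log2 scale (SE 0.20, 95% interval -0.70 to 0.16, adjusted p = 0.386), although each alpha library was above each delta library.

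The delta level of Basp1 was 83.0% of the alpha mean, and single delta libraries ran from 73.2% to 89.0%. The alpha markers Gcg and Irx2, measured the same way, stood at 4.90% and 7.94% of their alpha means in delta, and Etv1 stood at 63.6%. Ppy, a marker of the PP cell, had the same order of subsets as Basp1, at 2014 ± 378 CPM in alpha, 1709 ± 378 in delta and 41.5 ± 16.5 in beta (SD, n = 3). Ppy and Pyy summed to 2733 to 3820 CPM in alpha, 4358 to 6276 in delta and 62.4 to 90.4 in beta, and the part of PP cells in the Basp1 levels was not tested. In the other direction, alpha libraries held 0.251% of the delta level of Ptprz1, 4.11% of that of Gpm6a, 1.71% of that of Gap43 and none of Ly6h. The delta markers Sst, Hhex and Ghsr were at 0.219%, 0.720% and 0.384% in the same libraries, while Rbp4 and Ffar4 were at 14.5% and 31.6%. In every alpha library the share of Gpm6a, from 3.10% to 5.59%, was above those of Sst, Hhex and Ghsr in that library, whose highest value was 1.67%. Among the alpha libraries, Gpm6a, Ptprz1, Ptn, Sst, Hhex, Ghsr and Ffar4 were highest in replicate 3. Gap43 and Rbp4 were highest in alpha replicate 1, at 2.51% and 16.4%, against 1.94% and 12.0% in replicate 3. The part of delta cells in the alpha values was not tested.

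**Figure D2:**
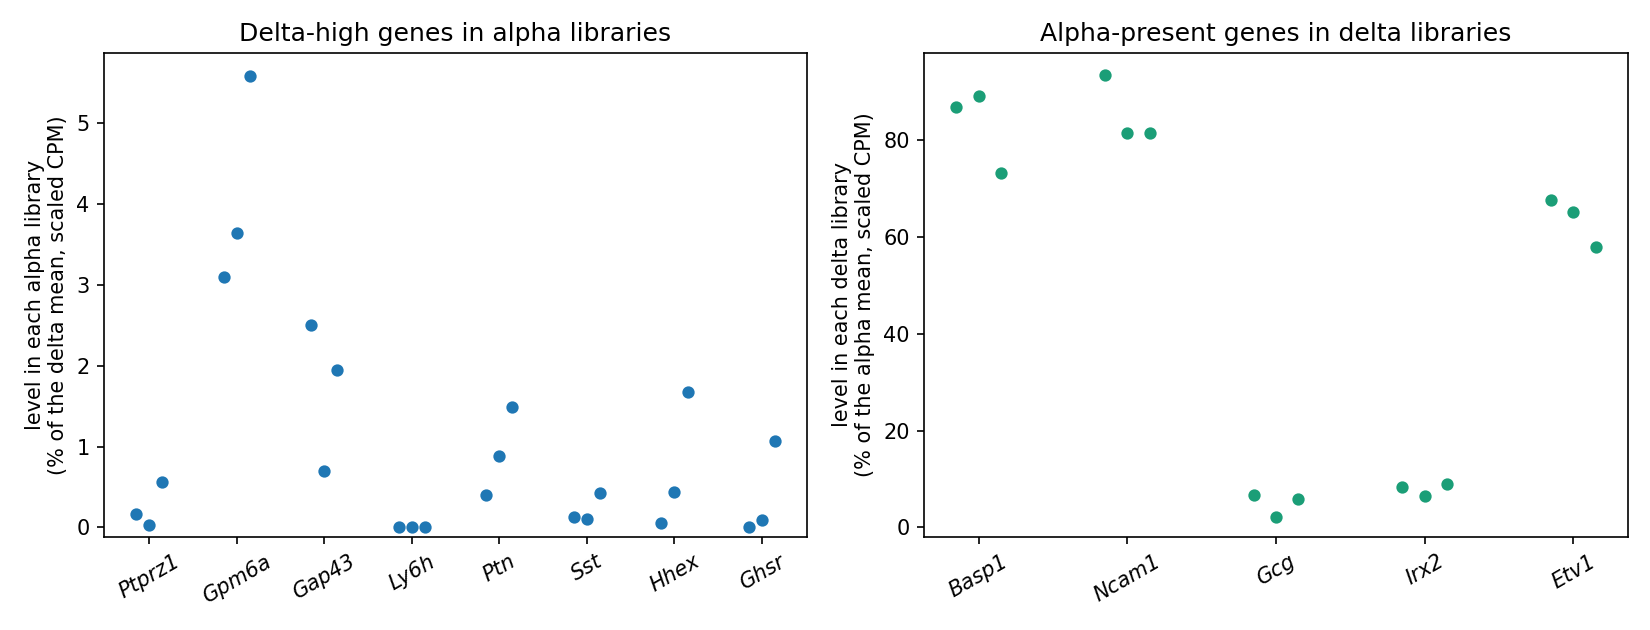
Left, the level of delta-high genes in each of 3 alpha libraries, as a percent of the delta mean; right, the level of genes present in alpha in each of 3 delta libraries, as a percent of the alpha mean (both from scaled CPM, y axes from 0). Gpm6a sits at 3.10% to 5.59% on the left, above Sst, Hhex and Ghsr. The delta markers Rbp4 and Ffar4, not drawn, were above Gpm6a, at 12.0% to 16.4% and 25.9% to 35.4%. On the right, Basp1 sits at 73.2% to 89.0%, far above Gcg and Irx2, with Etv1 between them.

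Ly6h, at chr15:75551268-75567255 on the minus strand, was found in delta alone among these libraries. It was measured at 6.83, 20.4 and 13.1 CPM in the delta replicates, from 50, 135 and 102 counts. None of the 6 alpha and beta libraries held a count, which allows up to 0.126 CPM over the alpha subset and 0.152 CPM over the beta subset. The mean of 13.4 ± 6.80 CPM (SD, n = 3) was at least 105-fold above alpha and at least 86.7-fold above beta. Of the 4 genes picked for their delta level, Ly6h varied most between the delta libraries relative to its mean, and replicate 1 was the lowest.

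Dcx, which binds and bundles microtubules in migrating and newly formed neurons, rose in steps from alpha to beta to delta. The gene is at chrX:143855842-143933311 on the minus strand. It was measured at 29.8, 25.1 and 18.2 CPM in alpha, at 49.3, 61.5 and 45.9 CPM in beta, and at 81.9, 112 and 99.8 CPM in delta. No library of one subset overlapped with another subset. Delta was 1.87 times beta (log2 0.91, SE 0.17, edgeR adjusted p = 0.000508) and 4.01 times alpha (log2 1.999, SE 0.18, adjusted p = 2.21e-07), and beta was 2.13-fold above alpha (log2 1.09, SE 0.18, adjusted p = 0.000151). With limma on log2(TPM + 1) only delta against alpha was called, at an adjusted p of 0.0626 for delta against beta and 0.119 for beta against alpha.

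Stmn2, a stathmin that binds tubulin dimers and is abundant in growing axons, was close to missing. The gene lies at chr3:8509360-8561606 on the plus strand. Alpha replicate 1 held 7 counts (0.797 CPM) and the other 8 libraries held none, so it was below the filter for testing. The absence of counts in delta allows up to 0.138 CPM over the 3 libraries.

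Ncam1, the neural cell adhesion molecule, was by TPM the highest of the 10 genes in alpha and in beta. At chr9:49502136-49798925 on the minus strand, it was measured at 213, 202 and 217 CPM in alpha, at 120, 117 and 136 CPM in beta, and at 197, 171 and 171 CPM in delta. Beta was the lowest in all 3 of its libraries, and each alpha library was above each delta library. Delta was 1.44 times beta (log2 0.53, SE 0.10, edgeR adjusted p = 0.000387), and beta fell by 0.76 on the log2 scale against alpha (SE 0.10, adjusted p = 1.08e-05). Delta against alpha, -0.23 (SE 0.10, 95% interval -0.43 to -0.026), did not pass (adjusted p = 0.0956), but did without delta replicate 1 (0.0275). The call of delta against beta was lost with limma on log2(TPM + 1) (adjusted p = 0.531), and that of beta against alpha on log2(TPM + 0.1) (0.0531). An antisense gene, Gm11149, overlaps Ncam1 with subset means of 2.78 to 5.72 CPM, and no source used here gives the strand setting of the counting.

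L1cam, the founding member of the L1 adhesion family, was low throughout and highest in beta. At chrX:73853778-73896105 on the minus strand, it was measured at 3.42, 2.64 and 3.10 CPM in alpha, at 8.99, 4.97 and 4.95 CPM in beta, and at 1.64, 4.08 and 2.57 CPM in delta. Beta replicate 1 was the highest library, and no beta library overlapped with alpha or delta. Delta fell by 1.20 on the log2 scale against beta (SE 0.44, edgeR adjusted p = 0.0456), a call that rests near the threshold. It was lost in 13 of the 17 alternatives in which the gene was tested, reaching 0.280 without beta replicate 1 and 0.104 without delta replicate 1. Leaving out alpha replicate 1, 2 or 3, beta replicate 2 or 3 or delta replicate 3 also lost it (adjusted p 0.0512 to 0.0909). Beta against alpha was 1.05 (adjusted p = 0.0852, 0.0406 without delta replicate 1 and 0.0217 in a fit of these 2 subsets alone), and delta against alpha was -0.15 (95% interval -1.09 to 0.78, adjusted p = 0.849). In delta replicate 1, the 12 counts were assigned a listed gene length of 590 bases, so the TPM there, 1.5, was the highest of the 3 delta libraries while its CPM was the lowest.

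**Figure D3:**
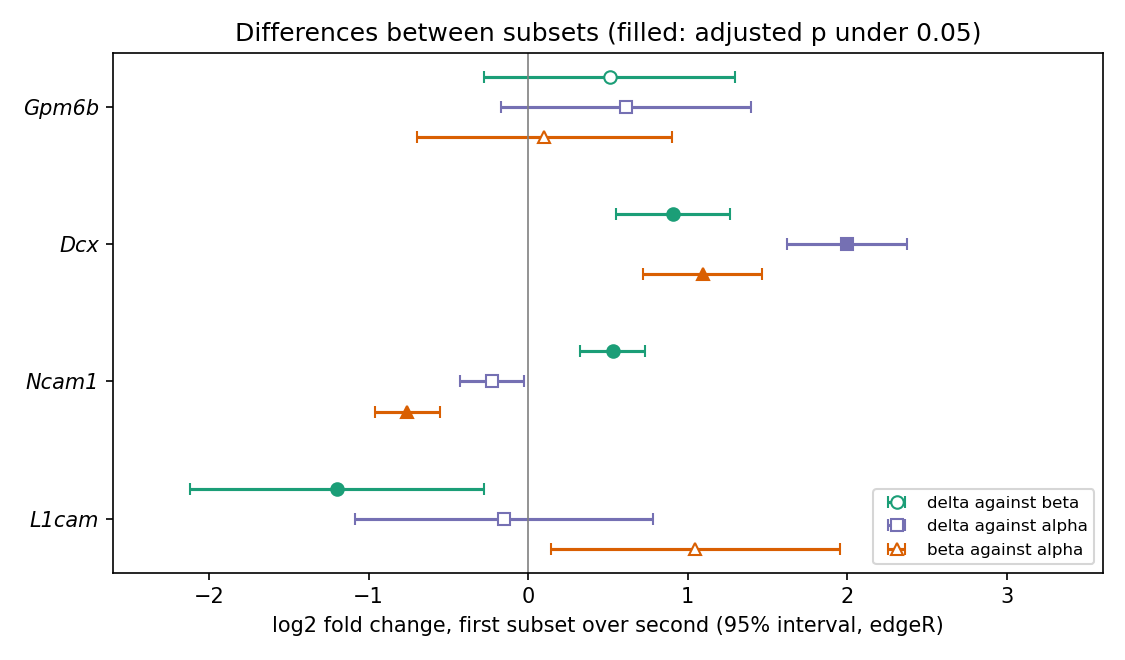
Log2 fold changes of Gpm6b, Dcx, Ncam1 and L1cam in the 3 comparisons of subsets (x axis, first subset over second) with 95% intervals from edgeR, filled where the adjusted p was under 0.05. Dcx is apart from 0 in each comparison, Gpm6b in none, and L1cam has the widest intervals.

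Counted together, 9 of the 10 genes passed the filter on low counts, and Ptprz1, Gap43 and Ly6h did so through delta alone. Of the 6 genes not picked for delta, 5 were tested: 3 were higher in delta than in beta (Basp1, Dcx and Ncam1) and 1 was lower (L1cam). Of all 15896 genes tested, 30.6% were called in that comparison, 15.3% as higher and 15.4% as lower. The libraries of the 2 subsets did not overlap for 4 of the 5, against 42.6% of all genes. Against alpha, 1 of the 5 (Dcx) was higher in delta and 0 were lower in edgeR, DESeq2 and limma. By unadjusted p, 1 (Ncam1) was lower, and edgeR called it without delta replicate 1. Of all genes, 24.3% were called in that comparison, 13.3% as higher and 11% as lower, and the libraries did not overlap for 3 of the 5, against 36.1%. The genes called there were split 2120 higher to 1748 lower on counts, but 618 to 798 with limma on log2(TPM + 1) and 563 to 715 on log2(TPM + 0.1). Between beta and alpha, 26.6% of all genes were called, 14.8% as higher in beta and 11.9% as lower, and the libraries did not overlap for 45.5%. Of the 6 members that pass the filter with the delta libraries left out, 4 were called in the fit of all libraries, with Gpm6a, Basp1 and Ncam1 lower in beta and Dcx higher, and L1cam was called as higher as well in the fit without delta. The 3 comparisons share their libraries and are not independent.

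By TPM, the order of the genes differed between subsets. In delta it ran from Ptprz1 (38.9 ± 7.92 TPM, SD, n = 3) over Gpm6a (18.1 ± 2.97), Ncam1 (16.5 ± 1.20), Gap43 (14.5 ± 4.88), Ly6h (8.61 ± 4.28) and Dcx (7.34 ± 1.90) to Basp1 (5.79 ± 0.905). Ptprz1 was above all other members in each delta library and above 95.6% of tested genes by its mean. Neighbours from Gpm6a down to Basp1 overlapped in their libraries, so their order is not settled, while Basp1 was apart from the low genes Gpm6b (0.987) and L1cam (0.800). In alpha, Ncam1 (24.6 ± 6.25), Basp1 (8.28 ± 1.34) and Dcx (1.96 ± 0.104) were apart from each other and from all members below. In beta, Ncam1 (13.6 ± 4.28) and Dcx (3.83 ± 0.583) led, L1cam (0.890) and Gpm6b (0.753) overlapped, Basp1 was listed at 0.04 TPM in 1 library, and the other 5 were listed at 0. The name of a delta group therefore covers 4 genes picked for it and Dcx: Basp1 and Ncam1 had their highest mean in alpha, L1cam in beta, Gpm6b showed no called difference and Stmn2 had no count in delta.

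The relatives of the 10 genes were described with a list of 19, of which 16 were tested. Against beta, 9 were higher in delta, 2 lower and 5 not called, with a median log2 fold change of 1.28 against 0.023 for all tested genes. Against alpha, 7 were higher and 4 lower (median 0.43 against 0.011). In beta against alpha none was higher, by edgeR, DESeq2 or unadjusted p, and 8 were lower (median -0.75 against -0.019). Lypd6, with only 37 counts in delta, 19 in alpha and 0 in beta, is among the 9 higher in delta than in beta and these 8. So is Lynx1, with 26 counts in delta, 38 in alpha and 1 in beta, although its delta and beta libraries overlapped. Of all genes, 15.3% and 15.4% were higher and lower in delta than in beta, 13.3% and 11% than in alpha, and 14.8% and 11.9% in beta than in alpha. With limma on log2(TPM + 1) and log2(TPM + 0.1), the relatives called were 5 to 6 higher and 0 to 1 lower in delta than in beta, 4 higher and 2 lower in delta than in alpha, and 3 lower in beta than in alpha. On counts, the 8 lower in beta were 4 without beta replicate 2 and 5 without beta replicate 1 or alpha replicate 2 or 3. The 2 genes lower in delta than in beta were 1 without alpha replicate 2, beta replicate 2 or 3 or delta replicate 1.

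Among the relatives, the nearest kin of Ptprz1 and of Ncam1 were highest in delta, while Ncam1 itself had its highest mean in alpha. Ptprg, the other receptor phosphatase of the Ptprz1 subfamily, was measured at 105, 116 and 94.6 CPM in delta, 30.3, 28.7 and 30.3 in alpha and 7.70, 6.34 and 7.43 in beta. Ncam2 was measured at 247, 185 and 229 CPM in delta, 21.3, 19.4 and 32.7 in alpha and 1.80, 2.23 and 2.48 in beta. For both, the 3 subsets did not overlap: Ptprg was 3.87 on the log2 scale above beta (edgeR adjusted p = 4.15e-12) and 1.82 above alpha (1.17e-08), and Ncam2 was 6.67 above beta (6.18e-12) and 3.18 above alpha (1.87e-09). Both also fell in beta against alpha, by 2.05 (adjusted p = 1.31e-08) and 3.50 (2.12e-08).

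Relatives of the microtubule proteins split. Dclk1, a kinase with a doublecortin domain, was 2.60 higher in delta than in beta on the log2 scale (edgeR adjusted p = 4.60e-06), with 26.4 ± 8.28 CPM in delta against 4.38 ± 1.11 in beta (SD, n = 3). The paralog Dclk2 had its highest level in alpha, 83.7 ± 13.2 CPM: delta fell by 0.94 (adjusted p = 0.000280) and beta fell by 2.34 against it (1.53e-08). The fall in delta was lost with limma on log2(TPM + 1) (adjusted p = 0.0531). Stmn3, a stathmin like Stmn2, was measured in every library and was 2.18 higher in delta than in alpha (adjusted p = 2.46e-06), at 29.0, 20.0 and 22.1 CPM against 5.70, 5.67 and 4.23.

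Nrcam and Nfasc, relatives of L1cam, fell in delta. Nrcam was measured at 48.6, 43.6 and 53.5 CPM in alpha and at 29.7, 26.9 and 26.2 CPM in beta, but at 0.137, 2.27 and 6.55 CPM in delta, from 1, 15 and 51 counts. All delta libraries were below the others, though they spread widely, and delta fell by 3.99 against alpha (edgeR adjusted p = 0.00384) and by 3.17 against beta (0.00893, and 0.0617 with limma on log2(TPM + 0.1)). Nfasc, at 212 ± 23.8 CPM in alpha, 162 ± 19.1 in beta and 126 ± 21.5 in delta (SD, n = 3), fell by 0.75 against alpha (adjusted p = 0.000347). Its fall of 0.36 against beta (adjusted p = 0.0438) was lost without alpha replicate 2 (0.0523), beta replicate 2 (0.103), beta replicate 3 (0.184) or delta replicate 1 (0.142), and with limma on log2(TPM + 1) (0.420).

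Of 19 ligands, receptors and binding partners, 11 were tested: 8 were higher and 2 lower in delta than in beta (median log2 fold change 1.34 against 0.023 for all genes), and 7 were higher and 2 lower in delta than in alpha (0.63 against 0.011). Of these, the 7 became 3 or 4 when alpha replicate 1 or alpha replicate 3, in that order, was left out, and the 2 lower became 1 without alpha replicate 2 or delta replicate 1. In beta against alpha, 3 were higher and 5 lower (-1.49 against -0.019). The shares of all genes are those given for the relatives, and on TPM with limma the counts were 4 and 1 in delta against beta, 2 and 1 in delta against alpha, and 2 and 3 in beta against alpha. Ptn, which encodes pleiotrophin, the ligand of Ptprz1, was measured at 39.7, 21.0 and 24.4 CPM in delta, at 0.114, 0.252 and 0.423 CPM in alpha from 6 counts, and at 0 in beta. Delta was thus the high subset for the ligand as for its receptor, at least 187-fold above beta and 108 times alpha by mean level, given without a test since Ptn passed the filter on low counts through delta alone. Ptn is nonetheless counted among the 8 and the 7 genes higher in delta above, and it enters the medians of that list.

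Gfra1, the receptor of the growth factor GDNF and a partner of Ncam1, was nearly missing in beta, as Basp1 was. It was measured at 36.6, 40.0 and 29.8 CPM in alpha and at 56.7, 63.1 and 45.2 CPM in delta, while the beta libraries held 3 counts in total. Delta exceeded beta by a ratio of 358 (95% exact counting interval 122 to 1737, edgeR adjusted p = 1.27e-11), and alpha exceeded beta by 234 (79.9 to 1138, adjusted p = 5.75e-11). Cntn1, the contactin that binds Ptprz1, was instead highest in beta, at 131 ± 26.9 CPM (SD, n = 3) against 47.1 ± 4.53 in delta and 17.3 ± 3.78 in alpha. Delta fell by 1.48 against beta (adjusted p = 2.15e-06) and was 1.44 above alpha (8.16e-06), and beta was 2.92 above alpha (1.58e-09).

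Tnr, the matrix protein tenascin-R that binds contactin, was highest in alpha at 400.1 ± 18.2 CPM, with 232 ± 14.9 in delta and 142 ± 2.08 in beta (SD, n = 3). Delta was 0.71 above beta (edgeR adjusted p = 5.49e-06) and fell by 0.79 against alpha (1.92e-06), and beta fell by 1.49 against alpha (7.41e-10). Ank2, an ankyrin that ties L1-type proteins to the spectrin skeleton, was highest in beta, where L1cam was highest as well. It stood at 548 ± 43.0 CPM in beta, 328 ± 33.0 in delta and 206 ± 14.9 in alpha: delta fell by 0.74 against beta (adjusted p = 1.37e-05) and was 0.68 above alpha (5.00e-05). With limma on log2(TPM + 1), Tnr in delta against beta (adjusted p = 0.294) and Ank2 in delta against beta (0.0515) and alpha (0.220) were not called. Fgfr1, a receptor that Ncam1 can engage, fell in beta against alpha by 1.97 (adjusted p = 7.16e-07) and in delta by 0.63 (0.0187), the latter lost without alpha replicate 2 (0.0802) or delta replicate 1 (0.0534) and on log2(TPM + 1) with limma (0.536). Chrnb2, a nicotinic receptor subunit, was 0.48 higher in beta than in alpha (adjusted p = 0.0155), a call lost without alpha replicate 3 (0.0876), beta replicate 1 (0.0671) or beta replicate 3 (0.0642) and on log2(TPM + 1) with limma (0.670).

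**Figure D4:**
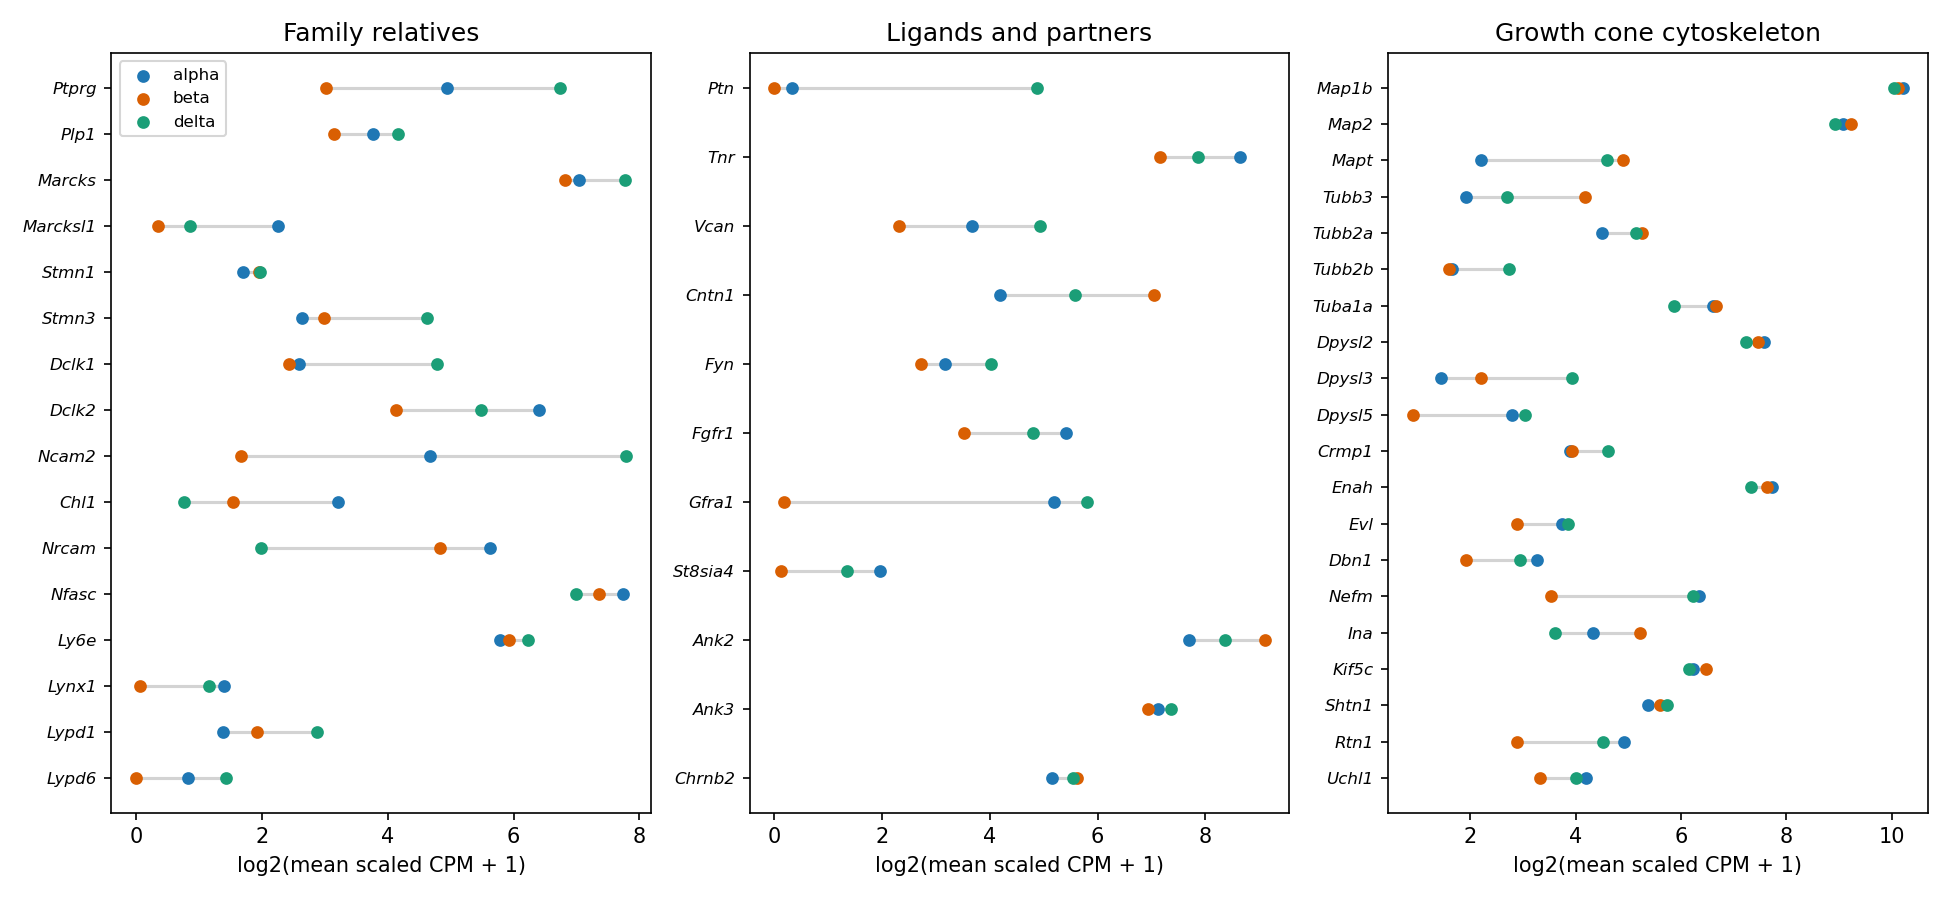
Mean scaled CPM of 3 libraries on a log2(CPM + 1) scale (x axis) in each subset, for the tested genes of the lists of family relatives, ligands and partners, and growth cone cytoskeleton. Ncam2, Ptprg and Ptn are among the genes whose delta point is the rightmost of the 3 subsets, and for Nrcam the delta point is the leftmost. Gfra1 is near 0 in beta alone, and the 3 subsets lie close together for Map1b.

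Genes of the growth cone cytoskeleton changed in both directions. Of 23 listed genes 20 were tested: 9 were higher and 6 lower in delta than in beta (median log2 fold change 0.037 against 0.023 for all genes), and 5 were higher and 3 lower than in alpha (-0.098 against 0.011). In beta against alpha, 4 were higher and 6 lower (-0.028 against -0.019). For all genes the shares were 15.3% and 15.4%, 13.3% and 11%, and 14.8% and 11.9%. With limma on TPM the counts in delta against beta turned to 2 higher and 3 lower, with 1 to 2 higher and 1 lower in delta against alpha and 2 higher and 4 to 5 lower in beta against alpha. On counts, the 5 became 2 without alpha replicate 3 and 3 without alpha replicate 1 or 2 or delta replicate 2 or 3, the 3 lower became 1 without alpha replicate 3, and the 4 became 2 without beta replicate 2. Map1b, a microtubule-associated protein of growing axons, was at 1187 ± 21.4 CPM in alpha, 1110.1 ± 23.2 in beta and 1050.1 ± 59.5 in delta (SD, n = 3), with no difference called.

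Single cytoskeletal genes differed between subsets in several ways. Nefm, a neurofilament subunit, had the pattern of Basp1 at a smaller contrast, with 79.8 ± 8.18 CPM in alpha and 74.2 ± 4.01 in delta against 10.5 ± 1.73 in beta (SD, n = 3). It was 2.83 higher in delta than in beta (edgeR adjusted p = 1.81e-10) and fell by 2.94 in beta against alpha (1.51e-10). Rtn1, a reticulon of the endoplasmic reticulum, was likewise 1.76 higher in delta than in beta (3.96e-06) and fell by 2.17 in beta against alpha (3.62e-07). Mapt, which encodes tau, was low in alpha only, at 3.58 ± 1.14 CPM against 28.9 ± 3.31 in beta and 23.2 ± 6.51 in delta: delta was 2.69 above alpha (7.16e-07) and beta 2.999 above alpha (1.59e-07). Dpysl3, a collapsin response protein, was highest in delta at 14.2 ± 1.41 CPM, 1.98 above beta (0.000364) and 3.08 above alpha (9.91e-06). With limma on log2(TPM + 0.1) both Dpysl3 calls were lost (0.226 and 0.0794), and on log2(TPM + 1) the one against beta (0.0861).

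Tuba1a, Ina and Tubb3 fell in delta against beta. Tuba1a fell by 0.81 against beta (edgeR adjusted p = 2.22e-05) and by 0.75 against alpha (7.11e-05), from means of 100.4 CPM in beta and 95.9 in alpha to 57.2 in delta. Ina, an intermediate filament protein, fell by 1.70 against beta (0.000129), and the neuronal tubulin Tubb3 by 1.65 (0.000694), a gene that was 2.61 higher in beta than in alpha (1.35e-05). Tubulin genes are near copies of each other, so their expected counts rest on how RSEM shared reads among them. Uchl1 fell by 0.94 in beta against alpha (adjusted p = 0.00712, and 0.0581 with limma on log2(TPM + 0.1)). Weaker calls were Enah, which fell by 0.39 in delta against alpha (adjusted p = 0.0113, and 0.0617 without alpha replicate 3), and Dpysl2, which fell by 0.35 (0.0384, and 0.0506 to 0.117 without alpha replicate 1, 2 or 3, beta replicate 3 or delta replicate 1). Tubb2a was 0.66 higher in delta than in alpha (0.0278, and 0.0567 to 0.135 without alpha replicate 2 or 3 or delta replicate 2 or 3) and 0.79 higher in beta than in alpha (0.00886, and 0.0505 without alpha replicate 3 or 0.0832 without beta replicate 2). With limma on log2(TPM + 1) none of these calls of Enah, Dpysl2 and Tubb2a was made (0.179 to 0.506).

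The genes most like the 4 delta-high members in pattern were found by the Pearson correlation of log2 CPM over the 9 libraries, among 9393 protein-coding genes. The points fall into 3 subsets, so a high r mostly restates a high level in delta, and it is given as a description. For Ptprz1 the nearest were Clmp, an adhesion protein (r = 0.997), Lmo3, a LIM-only cofactor (0.996), and Slc4a4, a bicarbonate transporter (0.996), and 146 genes exceeded 0.95. For Gpm6a they were Ncam2 (0.998), the tetraspanin Tspan8 (0.997) and the transcription factor Myrf (0.996), with means of 220.3, 213 and 59.4 CPM in delta. For Gap43 they were the diacylglycerol kinase Dgkb (0.995), Btbd3 (0.994) and again Slc4a4 (0.993). For Ly6h they were the potassium channel Kcnd2 (0.995), Gprasp2 (0.994) and Ppp1r17 (0.993), of which Kcnd2 and Ppp1r17 had no count in beta.

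Several of the 10 genes are also expressed by nerve and glial cells of the pancreas, so markers of these cells were read in the same libraries. Of 10 Schwann cell markers, Ngfr, Cdh19 and Foxd3 were at 0 in delta, and Sox10 and Gfap had 1 to 10 counts. The list summed to 95.6 to 109 CPM in delta, against 82.1 to 87.8 in alpha and 87.6 to 101 in beta. Most of the sum was Mbp. Of 10 markers of autonomic neurons, Prph, Phox2a, Hand2, Chat, Nos1 and Dbh were at 0 in delta and Slc18a3 and Vip had 1 to 10 counts, so the sum of 60.6 to 83.3 CPM was nearly all Ret. The same sum ran from 51.3 to 61.9 CPM in alpha and from 151 to 167 CPM in beta. The part of nerve and glial cells in the levels of the 10 genes was not tested.

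Markers of exocrine cells were present in delta to a varying degree. Acinar markers summed to 179 to 2069 CPM in delta, 47.5 to 274 in alpha and 15.02 to 48.8 in beta, with delta replicate 3 the highest, while the 6 duct markers summed to 184 to 331 CPM in delta, below alpha (595 to 786) and beta (362 to 410). Most of the duct sum was Spp1 and Krt7, at means of 78.4 and 118 CPM in delta, 557 and 125 in alpha and 110 and 251 in beta. Krt19 and Cftr held 54 and 20 counts in delta, 11 and 5 in alpha and 9 and 0 in beta, with Krt19 from 0 to 6.04 CPM over the delta libraries. Sox9, of the same list, was at 17.6, 14.4 and 25.1 CPM in delta and at most 1.13 CPM in alpha, with no count in beta. The part of acinar and duct cells in the delta levels was not tested. In delta replicates 1 to 3, Ptprz1 stood at 343, 358 and 364 CPM and Gpm6a at 123, 119 and 121. Gap43 stood at 35.2, 43.1 and 30.7 CPM there, and Ly6h at 6.83, 20.4 and 13.1. With beta replicate 2 and delta replicate 3 left out together, Basp1, Dcx and Ncam1 were still called as higher in delta than in beta, and L1cam was not (adjusted p = 0.115).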

How the data were processed

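Expected counts and TPM from RSEM were deposited by the authors for each library, per the file headers. The processing notes of the submitters name GRCm38.p6 as the genome, DESeq2 1.22.1 under R 3.5.1, RSEM, and the aligner STAR 2.5.2b. The RSEM version and strand setting are not given in the sources used here, though the kit keeps strand per the labels' protocols. The authors' normalised table was not used here. Expected counts, which are estimates and were not whole for 6.94% to 8.66% of genes per library, were rounded. All 55536 identifiers matched the GENCODE M21 annotation.

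Genes were kept with edgeR's filterByExpr (15896) and tested 2-sided with edgeR 4.0.16 in R 4.3.3 (TMM, robust quasi-likelihood F test) in 1 fit of all 9 libraries, with Benjamini-Hochberg adjustment at 0.05. The common biological coefficient of variation was 0.212. Each adjusted p is from edgeR unless DESeq2 1.42.0 or limma 3.58.1 is named. Fitted folds against subsets with no counts were replaced by a bound at 3 counts over the subset, and 1 to 3 counts gave a ratio with an exact 95% interval. Reads were not collapsed by molecular identifiers, so these cover counting error only. On simulated data for delta against beta (15568 genes), 39.4% of 2-fold and 100% of 4-fold changes were recovered, with 5 false calls. The simulation gave every gene the same spread and changed only 99 genes 2-fold and 98 genes 4-fold. It therefore does not give the power or the false calls of the tests on the real libraries.

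The members and lists were chosen with earlier results of these data known. All 10 members were named, and from each list up to 3 genes per comparison and direction with the smallest p at 10 CPM or more. Some marker genes are not reported here. For likeness, 3 genes per delta-high member were taken at 10 CPM or more. Alternatives changed scaling, filter, tool, unit, samples and the replicate block, and list counts were recomputed under them as an addition made after seeing the data.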

Additional observations from a re-analysis of the deposited data

How the results depend on the processing

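With limma on log2(TPM + 1) and log2(TPM + 0.1), 2013 and 1943 genes were called in delta against beta in place of 4869, 1416 and 1278 in delta against alpha in place of 3868, and 1485 and 1404 in beta against alpha in place of 4231. Of the 6 members not picked for delta, delta against beta kept 1 (Basp1) on both TPM scales in place of 4. Of all members, beta against alpha kept 3 and 2 in place of 5, a count that includes Gap43, which was tested only through its delta level. TPM also moved the median of all genes by -0.13 and -0.17 in delta against beta and by -0.18 and -0.23 in delta against alpha. Leaving out 1 library gave 3909 to 5260, 3090 to 4334 and 3210 to 4997 genes in the 3 comparisons, and 3 to 4, 1 to 2 and 5 to 6 members. The second member in delta against alpha was Ncam1, called without delta replicate 1. In beta against alpha the counts include Gap43, with Ptprz1 added without alpha replicate 2 or 3 and L1cam without delta replicate 1. Ptprz1, like Gap43, was tested only through its delta level.

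Directions reversed only among differences that were not called. L1cam in delta against alpha ran from -0.53 to 0.11 when 1 library was left out, above 0 only without delta replicate 1. Gpm6b in beta against alpha was -0.024 and -0.0081 on the TPM scales and ran from -0.083 to 0.45 when 1 library was left out, below 0 without alpha replicate 1 or 2 or beta replicate 3. The causes were not tested. Over single genes and settings, 1157 tested values kept direction and side of the threshold, 76 lost the call, 7 gained it and 6 reversed. These totals include genes that passed the filter through delta alone: Ptprz1 and Gap43 in beta against alpha, and Ptn in delta against both others. Of the gained calls, 4 were Ptprz1. Of the delta-high values given without a test, 115 moved by less than the spread between delta libraries and 37 by more.

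A fit with the replicate number as a block called 5241, 4294 and 4625 genes and 3, 1 and 5 members, without L1cam in delta against beta. The 5 include Gap43, which was tested only through its delta level. Deviations of same-numbered libraries correlated at 0.000850 to 0.112, and 1 of 9 exceeded 0.1, so the numbers were not taken to pair the samples in the main fit. In 16 of 18 pairings of a library with another subset, it correlated best with its own number. The sample titles also run in order by replicate number, but no label states a shared sort or batch. Whether same-numbered libraries are paired is therefore not settled. L1cam in delta rests on 59 counts, 12 of them in replicate 1, and at this depth its differences are not settled.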
